A study of Mus musculus with 6 samples.

Results

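The subject is 10 genes of mouse chromosome 14, namely Ccnb1ip1, Rem2, Gmfb, Ghitm, Fhit, Ppp1r3e, Ang, Gch1, Mtmr9 and Sorbs3, which were picked because at least 1 of their probe sets differed by a large amount between cells without cryptochromes and wild type cells. A probe set is the group of short oligonucleotides on an array that reads 1 transcript. All probe sets with 1 of these genes as their only symbol were taken, which gave 22 probe sets of 45037 on the array and of 1215 with a single gene on chromosome 14. The gene table placed all 10 genes on chromosome 14, as the name of the set says. The groups compared were bone marrow cells of Cry 1/2 double KO mice (DKO 1, DKO 2 and DKO 3) and of wild-type mice (WT 1, WT 2 and WT 3), both labelled strain C57BL/6. Cells of both genotypes had grown in medium with serum and interleukin-7, the cytokine that sustains early B lymphocytes. The labels used here give neither age nor sex, nor whether arrays of a group stand for separate mice or cultures. Signals are listed throughout in the order of array 1, 2 and 3, and a difference is log2 DKO minus WT, with its standard error (SE) from limma. Since the contrast of the genotypes chose these genes, their differences are given as a description, without a test.

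Cryptochromes repress the transcription factors CLOCK and BMAL1 and so close the negative feedback loop of the circadian clock. The 10 genes are not known as a pathway. They encode enzymes of cofactor, nucleotide, glycogen and phosphoinositide metabolism, regulators of actin and of cell adhesion, a small GTPase, a secreted ribonuclease, a mitochondrial membrane protein and a ubiquitin ligase of meiosis. What they share is the chromosome, and several of them are read by more than 1 probe set, so that probe sets of 1 gene can be set side by side.

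WT 2 stood apart from the other arrays. Among the Actb control probes, the 3' end was brighter than the 5' end by a factor of 824, against 1.47 to 2.05 on the other 5 arrays, and its median signal was 115, against 44.0 to 55.3. The differences of the 10 genes are therefore given with all 6 arrays and without WT 2. The Cry1 probe set gave 359, 399 and 545 on the DKO arrays against 1533, 1502 and 955 on the WT arrays, and the Cry2 probe set read 133 to 178 in DKO and 102 to 145 in WT, so that the Cry2 signals of the groups overlapped. Whether these probe sets lie in the deleted parts was not analysed here. B lineage markers were above the array median for all 13 measured genes on every array, and 7 were higher and 6 lower in DKO. Their levels were not alike between arrays. Dntt gave 10162, 10083 and 1079 on the DKO arrays against 1314, 3466 and 495 on the WT arrays. Ms4a1 gave 88.5, 136 and 5741 against 934, 1163 and 5263. Markers of granulocytes had a summed signal of 643, 632 and 27983 on the DKO arrays against 76316, 179412 and 19360 on the WT arrays. In bulk RNA, fewer cells of a type and less RNA per cell cannot be told apart.

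Clock proteins act through short DNA elements, and the promoters of 7 of the 10 genes were found in the RefSeq promoter table of build GRCm38.p6, with 10 start sites in all. They were searched on both strands, over 250 bases before and 50 after the start, for the E-box CACGTG, on which cryptochromes act, for the D-box TTATGTAA and for AGGTCA, the core of the element that REV-ERB and ROR proteins bind. The E-box was found at 1 of the 10 start sites, that of Gmfb, and in 7.15% of 32851 promoters of this length. The core AGGTCA was found at 3 of the 10 start sites, of Ccnb1ip1, Fhit and Rem2, and in 16.3% of all promoters, and the D-box at 0 of the 10 and in 0.938% of all. A match is a description of the letters and not a binding site. The promoters of Gmfb and Ccnb1ip1 are shown over the 250 bases before the start, 5′ to 3′ in the direction of transcription, because they hold such matches and because these genes have, respectively, the least concordant probe sets and the widest difference of the 10. Capitals mark the matches, an E-box in Gmfb that ends 1 base before the last base shown and a pair of AGGTCA cores in Ccnb1ip1, read there from the other strand as TGACCT.
Gmfb, minus strand, chr14:46822243-46822492: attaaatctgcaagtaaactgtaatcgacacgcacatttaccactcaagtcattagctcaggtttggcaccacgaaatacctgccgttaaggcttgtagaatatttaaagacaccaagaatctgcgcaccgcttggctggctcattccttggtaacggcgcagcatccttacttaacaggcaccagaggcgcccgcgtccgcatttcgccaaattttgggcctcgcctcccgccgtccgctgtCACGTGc
Ccnb1ip1, minus strand, chr14:50795729-50795978: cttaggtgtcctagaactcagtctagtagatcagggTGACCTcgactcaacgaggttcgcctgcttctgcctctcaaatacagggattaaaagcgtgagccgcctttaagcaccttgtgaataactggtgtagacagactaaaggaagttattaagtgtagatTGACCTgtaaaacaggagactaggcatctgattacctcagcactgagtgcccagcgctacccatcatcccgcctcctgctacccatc

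By their brightest probe sets, 5 of the genes had a higher and 5 a lower mean in DKO with all 6 arrays, where the mean was higher for 64.9% and lower for 35.1% of all tested probe sets. The groups did not overlap in 15 of the 22 probe sets on the log2 scale used here, with DKO above WT in 6 and below WT in 9. Among all 27022 probe sets tested the groups did not overlap in 10.3%, with DKO above WT in 6.97% and below WT in 3.29%. Since the members were chosen on this contrast, nothing is read from that excess. Of the 22 probe sets, 20 passed the filter on dim signals, and the groups did not overlap in 14 of these 20. Across all tested probe sets limma called 2 at an adjusted p under 0.05, which is 0.0074%, and neither belonged to these genes. At an unadjusted p under 0.05, limma counted 844 of all tested probe sets, or 3.12%. Without WT 2 limma called 6 of all tested probe sets, or 0.0222%, again 0 of them members, and 1185, or 4.39%, had an unadjusted p under 0.05. Without WT 2 the groups did not overlap in 20 of the 22 probe sets, with DKO above WT in 7 and below WT in 13. Among the 20 member probe sets tested they did not overlap in 18. The share among all tested probe sets was 18.5%, with DKO above WT in 10.3% and below WT in 8.18%.

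**Figure D1:**
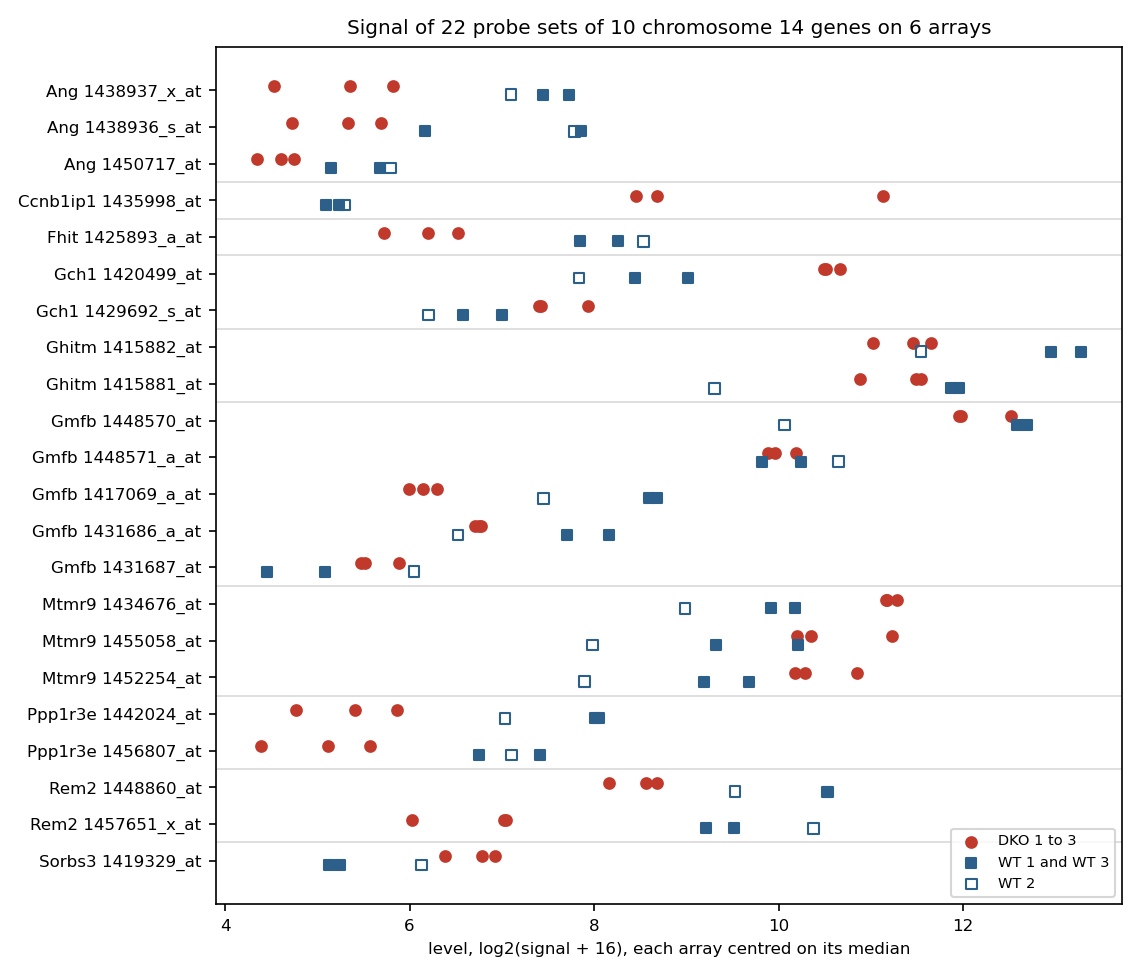
Level of each of the 22 probe sets on the 6 arrays, as log2(signal + 16) with each array centred on its median (horizontal axis), with 1 row per probe set, circles for DKO 1 to 3, filled squares for WT 1 and WT 3 and open squares for WT 2. The groups are apart in 15 of the 22 rows, and WT 2 lies away from WT 1 and WT 3 in rows such as both of Ghitm and the first of Gmfb.

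Ccnb1ip1 had the widest difference of the 10 genes, with higher signal in DKO. It encodes HEI10, a ubiquitin ligase that acts on meiotic crossovers and binds cyclin B. Its single probe set gave 376, 314 and 1793 on the DKO arrays against 16.3, 53.2 and 15.5 on the WT arrays. All 3 WT signals lay below the median of their arrays, at percentiles 25.6, 30.2 and 28.2, while the DKO signals lay at percentiles 74.3, 72.1 and 90.0, so no fold is given. DKO arrays averaged 9.42 ± 1.49 (SD, n = 3) on the log2 level scale, WT arrays 5.21 ± 0.10 (SD, n = 3), which is a difference of 4.21 (SE 0.69). Without WT 2 it was 4.25 (SE 0.77). DKO 3 was the highest array, and without it the difference was 3.36. Its size also depended on the constant added before taking logs, at 4.96 with a constant of 1 and 3.10 with a constant of 64. Of the 4 tested genes of meiotic crossover, Ccnb1ip1 among them, 3 were higher and 1 was lower in DKO, with a median of 0.90 where the median of all tested genes was 0.30, and 0 were called. Msh5, a partner of Msh4 in crossover formation, gave 832, 716 and 244 on the DKO arrays against 246, 254 and 235 on the WT arrays, a difference of 1.37, and 1.07 without WT 2. DKO 3 thus read like the WT arrays for Msh5, whereas for Ccnb1ip1 it was the highest. Without WT 2 the median of the 4 genes was 0.50. Mlh3, another gene of the list, differed by 0.43 with all arrays and by -0.09 without WT 2.

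Gch1, the enzyme that starts tetrahydrobiopterin synthesis from GTP, had higher signal in DKO by both of its probe sets. The brighter one gave 1536, 1354 and 1146 on the DKO arrays against 312, 387 and 415 on the WT arrays. The lowest DKO array was well above the highest WT array, and all 6 signals lay above the array medians. DKO arrays averaged 10.56 ± 0.09 (SD, n = 3) on the log2 level scale, WT arrays 8.43 ± 0.59 (SD, n = 3), which is a difference of 2.12 (SE 0.44), and 1.83 (SE 0.26) without WT 2, or 3.55-fold on this scale. The dimmer probe set gave 149, 143 and 182 on the DKO arrays against 74.4, 114 and 90.5 on the WT arrays. Its groups did not overlap either, and its difference was less wide, at 1.00 (SE 0.33) and 0.80 without WT 2. Tetrahydrobiopterin is a cofactor of nitric oxide synthases and aromatic amino acid hydroxylases. Of the 6 tested genes of its synthesis and recycling, 4 were higher and 2 were lower, with 0 called and a median of 0.37, and without WT 2 there were 2 higher and 4 lower, with a median of -0.17. Groups did not overlap for 1 of the 6, Gch1 itself, which was chosen for its difference, against 10.6% of all tested genes and 17.5% without WT 2. Spr, the sepiapterin reductase of the final step, differed by 1.06 with all 6 arrays, with a signal of 6.39 on WT 2, and by -0.19 without it. Qdpr, which recycles the cofactor, differed by -0.50 and by -0.22 without WT 2.

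Fhit encodes a histidine triad hydrolase of dinucleoside polyphosphates, and the gene spans a known fragile site. Its single probe set gave 34.7, 53.2 and 58.4 on the DKO arrays against 201, 636 and 240 on the WT arrays. Each DKO array lay under each WT array. DKO arrays averaged 6.15 ± 0.40 (SD, n = 3) on the log2 level scale, WT arrays 8.21 ± 0.34 (SD, n = 3), which is a difference of -2.06 (SE 0.35), and -1.90 (SE 0.33) without WT 2. On DKO 1 and DKO 2 the signal lay below the array median, at percentiles 40.4 and 49.7. Of 7 tested histidine triad genes, 5 were higher and 2 were lower with or without WT 2, with 0 called and a median of 0.05. Dcps, the scavenger decapping enzyme, differed by 1.05 with all arrays and by -0.20 without WT 2, and Aptx, which repairs abortive DNA ligation ends, by 0.43 and 0.09.

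Ppp1r3e, a subunit that directs protein phosphatase 1 to glycogen, had lower signal in DKO by both of its probe sets. The first gave 39.9, 23.7 and 6.03 on the DKO arrays against 228, 215 and 206 on the WT arrays. As signals the WT arrays were within a narrow range, but after centring WT 2, at 7.04, lay below WT 1 and WT 3, at 8.01 and 8.05. The DKO arrays were all below the array median. The difference was -2.35 (SE 0.42), and -2.69 (SE 0.37) without WT 2. The second gave 17.1, 28.5 and 0.927 on the DKO arrays against 85.6, 226 and 126 on the WT arrays, a difference of -2.07 (SE 0.38) and -2.06 without WT 2. Both probe sets were thus lowest on DKO 3 and apart by genotype. Signals as low as these carry little information on size, and with a constant of 1 in place of 16 the differences were -3.12 and -3.38, with a constant of 64 -1.49 and -1.16. Of 19 tested genes of glycogen metabolism and its phosphatase, 13 were higher and 6 were lower, with 0 called and a median of 0.35, and without WT 2 there were 12 higher and 7 lower, with a median of 0.07. The catalytic subunit genes Ppp1ca and Ppp1cb differed by 2.21 and 1.59, with signals of 320 and 1038 on WT 2, and by 0.02 and 0.20 without it. Groups did not overlap for 2 of the 19 genes, Ppp1r3e itself and Gys1, a glycogen synthase, against 10.6% of all tested genes.

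Mtmr9, an inactive relative of the myotubularin phosphoinositide phosphatases that binds and regulates active ones, had higher signal in DKO by all 3 of its probe sets. The brightest gave 2170, 2326 and 1843 on the DKO arrays against 899, 876 and 951 on the WT arrays, with a clear space between the groups. Its difference was 1.51 (SE 0.46), and 1.15 (SE 0.21) without WT 2, or 2.23-fold. The second gave 1110, 1207 and 1923 on the DKO arrays against 586, 429 and 967 on the WT arrays. On the centred scale WT 3 lay just within the DKO range, and the difference was 1.43 (SE 0.65), and 0.83 without WT 2. The third gave 1174, 1070 and 1471 on the DKO arrays against 535, 403 and 668 on the WT arrays, a difference of 1.51, and 1.00 without WT 2. All 18 signals lay above the array medians, so that in this gene bright probe sets differed in 1 direction. Of 13 tested myotubularin genes, 10 were higher and 3 were lower, with 0 called and a median of 0.52, and 9 were higher without WT 2, with a median of 0.13. Groups did not overlap for 1 of the 13, Mtmr9 itself, which was chosen for its difference, against 10.6% of all tested genes. Mtmr1 differed by 1.19 and Sbf1, another inactive relative, by 0.90, and without WT 2 these were 0.19 and 0.20.

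Rem2, an RGK small GTPase that inhibits voltage-gated calcium channels, had lower signal in DKO by both of its probe sets. The brighter one gave 346, 252 and 316 on the DKO arrays against 1387, 1284 and 1208 on the WT arrays. As signals no array of a group came near those of the other. After centring, WT 2, at 9.53, lay between DKO 3, at 8.69, and WT 3, at 10.52. All 6 signals lay above the array medians. DKO arrays averaged 8.47 ± 0.28 (SD, n = 3) on the log2 level scale, WT arrays 10.20 ± 0.58 (SD, n = 3), which is a difference of -1.73 (SE 0.45), and -2.06 (SE 0.26) without WT 2, or 4.17-fold lower in DKO. The second gave 108, 45.2 and 90.2 on the DKO arrays against 672, 2325 and 478 on the WT arrays, a difference of -3.00 (SE 0.47), and -2.66 without WT 2. WT 2 was the highest array for the second probe set and not for the first. Both relatives tested read within the overlap of the groups, with Gem at 1.13 (0.10 without WT 2) and Rrad at -0.37 (-0.42 without WT 2).

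Ang encodes angiogenin, a secreted ribonuclease that can drive blood vessel growth and cleave transfer RNA. Its brightest probe set gave 23.1, 5.71 and 29.7 on the DKO arrays against 149, 226 and 161 on the WT arrays. All DKO arrays were below the array median and all WT arrays above it. The difference was -2.19 (SE 0.40), and -2.35 (SE 0.41) without WT 2. The second gave 22.6, 8.83 and 25.6 on the DKO arrays against 203, 372 and 44.1 on the WT arrays, a difference of -2.02 (SE 0.52), and -1.77 without WT 2. With a constant of 1 in place of 16 these differences were -3.00 and -2.67, and with a constant of 64 -1.33 and -1.29. In the second, WT 3 was closer to the DKO arrays than to WT 1. The third, which did not pass the filter, read 3.13 to 9.68 in DKO and 13.6 to 81.9 in WT, below the array median on every array, so that it has only a low signal on both sides. The names of the first 2 end in _x_at and _s_at, the array maker's marks for probes that may also match other transcripts. The second Rem2 probe set also has a name in _x_at, and the dimmer Gch1 probe set 1 in _s_at. Mice carry several close relatives of Ang on the same chromosome. Probe sets of Ang2, Ang3 and Ang4 did not pass the filter, and their signals were at most 26.6 in DKO, 31.9 in WT 1 and WT 3 and 152 in WT 2. Rnase4, which lies beside Ang and shares its promoter region in mice, gave 321, 289 and 172 on the DKO arrays against 187, 326 and 137 on the WT arrays, a difference of 0.60, and 0.59 without WT 2, in the direction opposite to Ang. Rnase6, expressed in monocytes and neutrophils, gave 23.8, 21.0 and 192 on the DKO arrays against 162, 716 and 298 on the WT arrays, a difference of -2.04, and -1.83 without WT 2. It was low on DKO 1 and DKO 2 only, the arrays with the low granulocyte markers, while Ang was low on all 3, and the part of cell makeup in either was not tested. Of 5 tested genes of the ribonuclease A list, 2 were higher and 3 lower, with 0 called and a median of -0.23.

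Ghitm encodes a TMBIM protein of the inner mitochondrial membrane. Its brighter probe set gave 1981, 2624 and 2577 on the DKO arrays against 7443, 5236 and 8240 on the WT arrays. As signals the groups were apart, but after centring WT 2, at 11.54, lay within the DKO range of 11.03 to 11.65. The difference was -1.21 (SE 0.53), and -1.73 (SE 0.24) without WT 2, or 3.32-fold lower in DKO. The other probe set gave 2841, 2686 and 1504 on the DKO arrays against 3712, 1097 and 3089 on the WT arrays. Here WT 2 was the lowest array, and the difference turned from 0.27 with all 6 arrays to -0.60 without WT 2. It was also -0.21 with quantile normalization, -0.04 without centring and -0.03 with centring over the tested probe sets. Both probe sets were in the brightest part of every array, at percentiles of 88.5 and above. Of 6 tested TMBIM genes, 4 were higher and 2 were lower with 0 called and a median of 0.46, and without WT 2 there were 3 on each side, with a median of 0.02. Tmbim6, the BAX inhibitor 1 gene, differed by 1.30 and by 0.05 without WT 2, and Faim2 by 0.96 and 0.83.

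Gmfb was the gene whose 5 probe sets went together least. It encodes glia maturation factor beta, a relative of cofilin that removes branches from actin networks made by the Arp2/3 complex. The brightest probe set gave 3849, 3716 and 4708 on the DKO arrays against 5768, 1871 and 5480 on the WT arrays, a difference of 0.37 (SE 0.73). WT 2 was the lowest of its 6 arrays, and without it the difference was -0.48 (SE 0.22). The second gave 939, 871 and 921 on the DKO arrays against 839, 2814 and 992 on the WT arrays, and its difference was -0.23, and -0.02 without WT 2. By this probe set DKO and WT overlapped with or without WT 2. The third gave 52.0, 43.9 and 47.2 on the DKO arrays against 349, 292 and 326 on the WT arrays. As signals these groups were far apart and narrow, but after centring WT 2, at 7.45, lay below WT 1 and WT 3, at 8.60 and 8.68. The groups stayed apart, with a difference of -2.10 (SE 0.40), and of -2.49 (SE 0.25) without WT 2. The fourth gave 87.1, 82.3 and 72.2 on the DKO arrays against 253, 146 and 159 on the WT arrays, a difference of -0.72, and -1.19 without WT 2. The fifth was dim on every array, at 25.5 to 31.7 in DKO and 4.66 to 101 in WT, and did not pass the filter. Its difference was 0.43, and 0.86 without WT 2, where it alone was higher in DKO. Depending on the tested probe set, Gmfb was thus close to equal in the groups or much lower in DKO. Of 12 tested genes of the Arp2/3 complex and of actin regulators with the same fold, 9 were higher and 3 were lower with 0 called and a median of 0.40, and without WT 2 there were 6 on each side, with a median of -0.04. Dstn, the actin depolymerizing factor destrin, differed by 1.51, Cfl2, a cofilin, by 1.09 and Arpc4 by 0.91, with 0.12, 0.59 and -0.31 without WT 2.

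Sorbs3 encodes vinexin, an adaptor of cell adhesion sites that binds vinculin. Its single probe set gave 100.3, 87.0 and 51.2 on the DKO arrays against 16.8, 107 and 15.6 on the WT arrays. As signals WT 2 was the highest of the 6, while after centring, WT 2 lay below each DKO array. DKO arrays averaged 6.70 ± 0.28 (SD, n = 3) on the log2 level scale, WT arrays 5.50 ± 0.55 (SD, n = 3), which is a difference of 1.20 (SE 0.36), and 1.51 (SE 0.29) without WT 2. All WT signals lay below the median of their array, so no fold is given. With a constant of 1 in place of 16 the difference was 1.66, and with a constant of 64 it was 0.66. Sorbs2, of the same family, differed by 0.73 and vinculin by 0.15, with 0.80 and 0.16 without WT 2, and in both the groups overlapped.

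**Figure D2:**
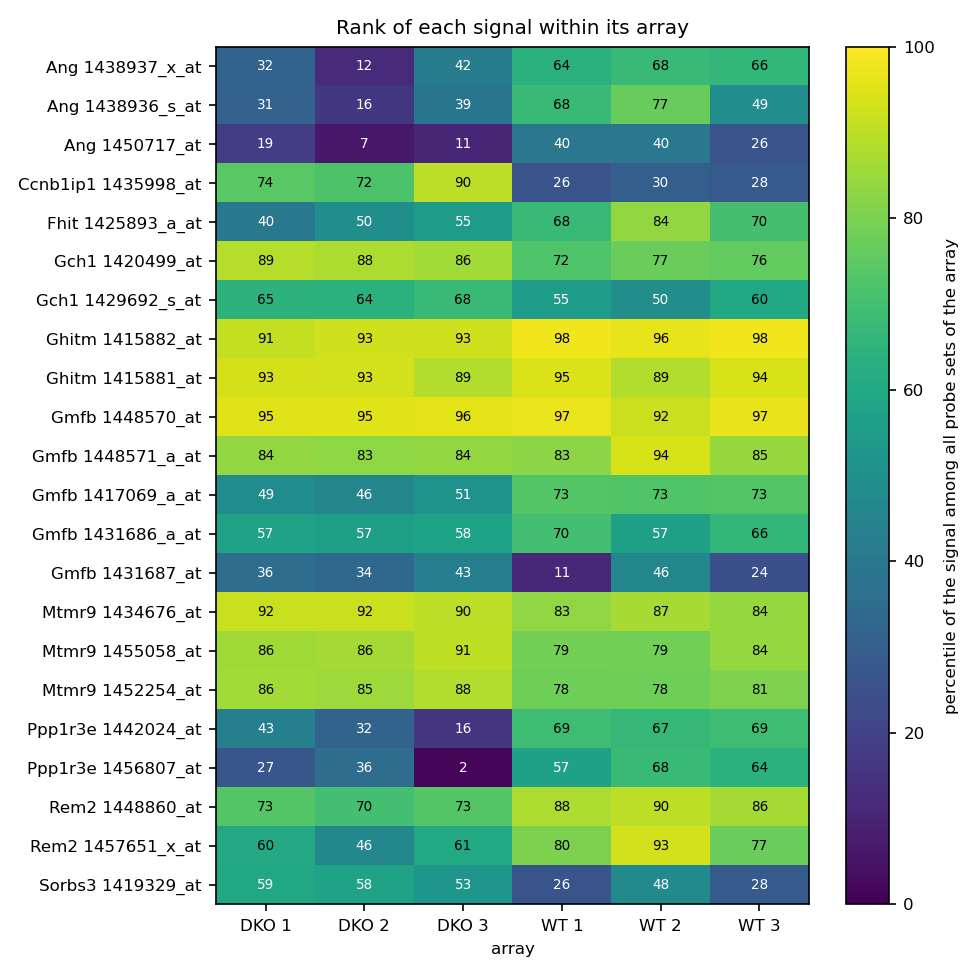
Percentile of each signal among all probe sets of its array, with 1 row per probe set and 1 column per array, coloured from 0 (dimmest) to 100 (brightest). All 3 probe sets of Mtmr9 and both of Ghitm are bright throughout, while Ccnb1ip1 and Sorbs3 are below 50 on all WT arrays and Ppp1r3e and Ang on all DKO arrays.

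The figure of percentiles shows where a difference runs between a measured and a dim signal. Of the 22 probe sets, 10 were above the array median on all 6 arrays, among them both of Ghitm, all 3 of Mtmr9 and 1 each of Gch1 and Rem2. In 6 probe sets all DKO signals lay below the array median, among them all 5 of Ang and Ppp1r3e. Detection calls were not used here.

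Over the 7 genes with more than 1 tested probe set, the tested probe sets had the same sign in 5 with all 6 arrays and in 7 without WT 2. With probe sets under the filter counted too, it was 5 and 6, since the fifth of Gmfb was higher in DKO. Over all genes with more than 1 tested probe set and at least 1 difference of 1.5 or more in size, probe sets had the same sign in 61.9% of 543 genes with all 6 arrays and in 75.4% of 134 without WT 2. The size differed more than the sign. Without WT 2, the range over the tested probe sets of a gene ran from 0.32 for Mtmr9 to 2.47 for Gmfb, with a median of 0.63. The median over those 134 genes was 1.14. The members were not held to a difference of 1.5, and Mtmr9 reached at most 1.15 without WT 2. They were also picked on this contrast, so nothing is read from these comparisons. Strain sequence variants under the probes were not analysed here, and unequal binding and unequal expression cannot be told apart. The other 3 genes, Ccnb1ip1, Fhit and Sorbs3, had 1 probe set each and allow no such comparison.

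**Figure D3:**
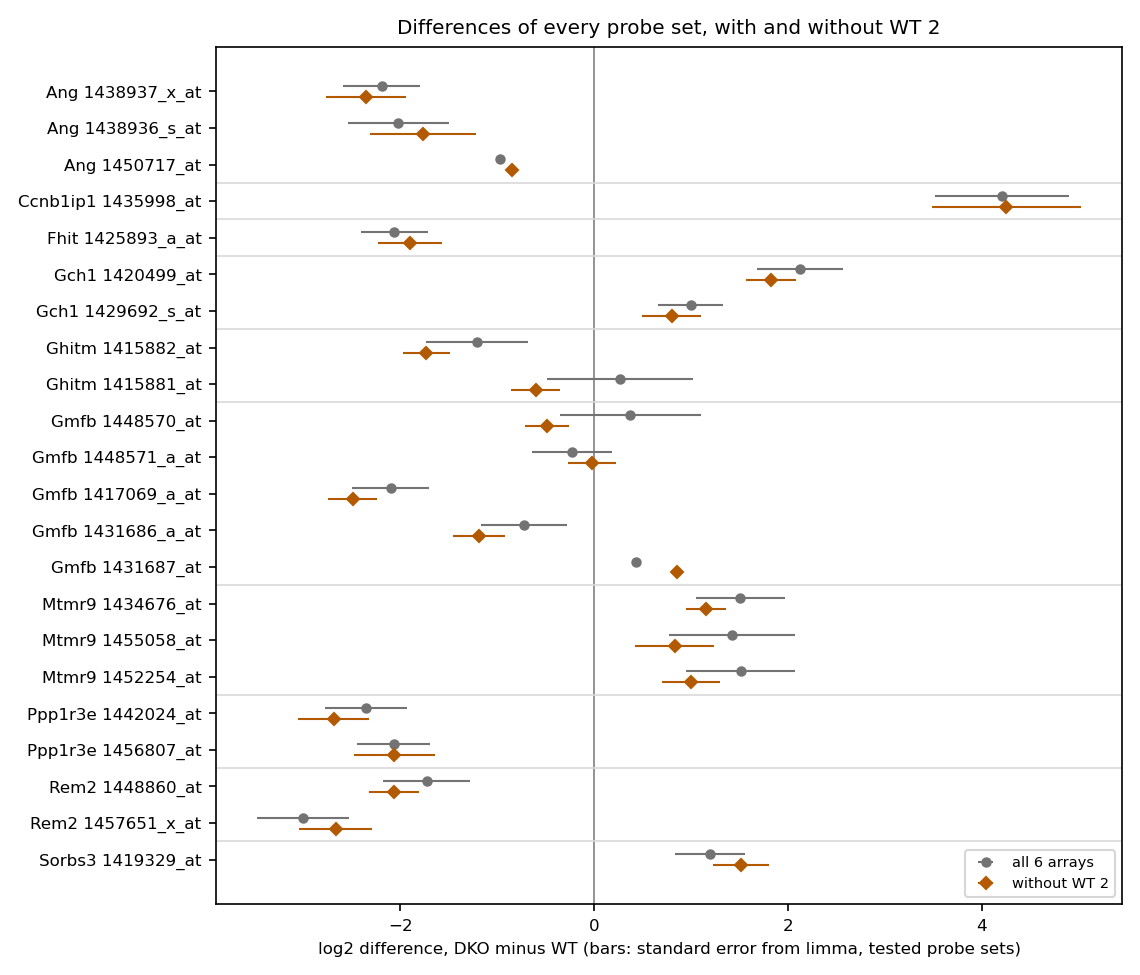
Log2 difference, DKO minus WT (horizontal axis), of each of the 22 probe sets, with circles for all 6 arrays and diamonds for the 5 arrays without WT 2, and bars for the standard error from limma where the probe set was tested. Those of Mtmr9 lie together with all 6 arrays, the 2 of Rem2 are at -1.73 and -3.00 with all 6 arrays and at -2.06 and -2.66 without WT 2, and those of Gmfb run from -2.49 to 0.86 without WT 2.

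DKO 3 resembled the WT arrays in granulocyte markers, with a summed signal between those of WT 3 and WT 1. For the 10 genes, DKO 3 lay outside the range of WT 1 and WT 3 in 21 of the 22 probe sets, and on the same side of their mean as the average of DKO 1 and DKO 2 in 21. Over all tested probe sets these shares were 68.7% and 48.1%. The exception among the 22 was, for both measures, the second probe set of Gmfb. Against the mean of WT 1 and WT 3, DKO 3 differed by 5.96 for Ccnb1ip1, by -1.84 for the brighter Rem2 probe set, by 1.76 for the brighter Gch1 probe set and by -1.52 for Fhit, each from 1 array. DKO 3 is among the arrays on which the genes were chosen, so these values are a description, and the part of cell makeup in the differences was not tested.

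Along the chromosome the 10 genes were not next to each other. In gene order, counting the 435 genes with a tested probe set or in the set, Fhit was at place 10 and Sorbs3 at place 340. The closest pair was Gmfb and Gch1, with 2 measured genes between them, followed by Ccnb1ip1 and Ang with 7, Rem2 and Ppp1r3e with 10, Gch1 and Ccnb1ip1 with 15 and Ghitm and Gmfb with 16. Between Fhit and Ghitm there were 121. Neighbours of opposite direction occurred, since Gch1 and Ccnb1ip1 were higher in DKO and Ang, next in order, was lower.

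For each gene the 5 nearest measured genes on either side were examined, 89 distinct genes that are not members. Their median difference was 0.28, where that of all 12627 tested genes was 0.30, and without WT 2 it was -0.03, where that of all was 0.01. The groups did not overlap in 15 of the 89, or 16.9%, against 10.6% of all genes, and without WT 2 in 25, or 28.1%, against 17.5%. Over the tested chromosome 14 probe sets that are not members, counted by probe set and with these neighbours included, the shares were 13.2% and 22.9%. The neighbours with the widest differences are named here, with the value without WT 2 in parentheses. Near Rem2 they were Ajuba, a LIM domain protein, at -1.87 (-2.14) and Mmp14, a membrane metalloproteinase, at -1.79 (-2.16). Near Ccnb1ip1 they were Ttc5 at 2.03 (0.60) and Gm26782 at -1.65 (-1.63). Prxl2a at 1.67 (0.96) and Ccser2 at -1.54 (-1.59) lay near Ghitm, and Lgals3, the galectin-3 gene, at -1.63 (-1.41) and Mapk1ip1l at 1.11 (0.10) near Gch1. Near Gmfb, Bmp4 differed by 1.19 (1.54) and Socs4 by 0.58 (0.15), and near Ppp1r3e, Slc22a17 by 1.42 (1.30) and Acin1 by 1.36 (-0.10). Near Ang, Rnase6 differed by -2.04 (-1.83) and Osgep by 1.15 (0.27), and near Fhit, 3830406C13Rik by 1.20 (0.99) and Psmd6 by 0.82 (-0.12). Near Sorbs3, 9930012K11Rik differed by 1.16 (1.08) and Pdlim2 by 1.03 (0.18), and near Mtmr9, Prss51 by 0.73 (0.37) and Gata4 by -0.65 (-0.33). Acin1 and Psmd6 turned sign without WT 2.

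**Figure D4:**
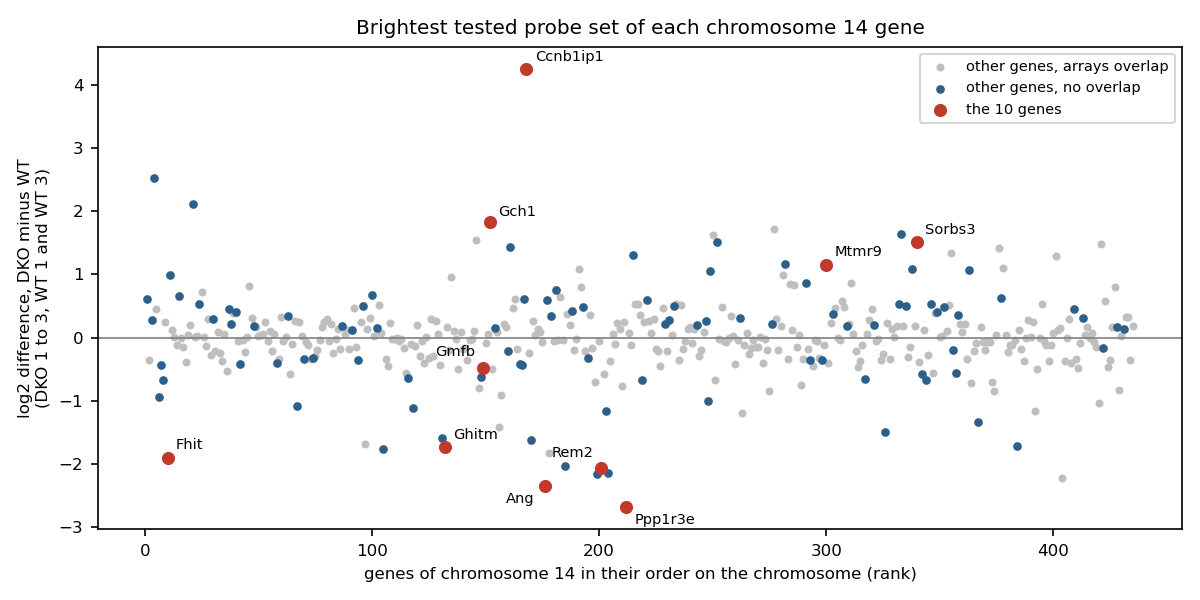
Log2 difference, DKO 1 to 3 minus WT 1 and WT 3 (vertical axis), of the brightest tested probe set of each of 435 chromosome 14 genes in their order on the chromosome (horizontal axis), with large points for the 10 genes and small dark points for other genes whose arrays do not overlap. The 10 genes are spread along the axis, from Fhit at place 10 to Sorbs3 at place 340, and lie on both sides of 0.

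Chromosome 14 as a whole, members included, held 764 tested probe sets, and the groups did not overlap in 14.7% of them. With the members counted this was the highest share of 20 chromosomes, whose lowest was 7.50%. Its rank without the members was not determined. Without the members this share was 13.2% of 744 probe sets, and 22.9% of 739 without WT 2, where 18.5% of all tested probe sets did not overlap. An unadjusted limma p under 0.05 was found for 6.99% of those 744, against 3.12% of all tested probe sets. Genes on a chromosome and probe sets of a gene are not independent, and the members were proposed from this contrast, so these shares are given as a description.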

How the data were processed

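Total RNA of 6 samples was hybridised to oligonucleotide arrays. Each probe set has 1 deposited linear intensity for each array, which the authors computed by MAS5 (submitters' processing notes, no version named). Trimmed of the top and bottom 2%, signals averaged 500 on all arrays. Of 45037 probe sets that are no controls, 34945 had 1 gene symbol, and 34741 of these matched the gene table of GRCm38.p6, used for names and gene order. Values were transformed as log2(intensity + 16), and each array was centred on its median, since medians differed by 1.13. Levels have the mean of the array medians added back. Probe sets with a mean above percentile 40, 27022 in all, entered limma 3.58.1 (R 4.3.3), where group was the single term and variances followed a trend. P-values were two-sided and adjusted by Benjamini-Hochberg at 0.05. When an array was left out, the filter was redone on the arrays kept. A gene was represented by its tested probe set with the highest mean. The fit was tested on simulated data. Tables and figures came from Python 3.11.15, pandas 2.3.3, numpy 2.4.6 and matplotlib 3.10.9. The spread behind the p-values is that between these arrays and may be technical, and the number of arrays limits the precision.

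The members and the lists, namely 10 pathway or family lists and 7 marker lists, were chosen with earlier results of these data known. Named were all members, up to 3 genes of each pathway list with the largest difference, the 2 neighbours of each member with the largest difference among its 10 nearest, and the 3 genes with the most similar profile. Fold changes are on the log2(intensity + 16) scale and understate the change of dim genes. Alternatives were pseudocounts of 1 and 64, quantile normalization, centring left out or done over tested probe sets alone, the filter dropped or raised to percentile 60, other variance models, the replicate number as a block, and each array left out. The summed signals of the marker lists not given in the text follow, DKO arrays against WT arrays. Macrophage and monocyte markers gave 25662, 17927 and 29903 against 52091, 109851 and 20919. T and NK cell markers gave 1008, 1729 and 314 against 380, 1185 and 331. Mast cell and basophil markers gave 1069, 978 and 143 against 251, 515 and 184. In these last 2 lists DKO 1 and DKO 2 were thus above DKO 3, WT 1 and WT 3. Erythroid and megakaryocyte markers gave 609, 623 and 4546 against 2556, 5470 and 2861. Stromal and endothelial markers gave 707, 1112 and 584 against 598, 1107 and 793. B lineage markers summed to 83220 to 120807 in DKO and 84306 to 160717 in WT.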

Additional observations from a re-analysis of the deposited data

How the results depend on the processing

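The 2 probe sets that limma called over the whole array were 0 with quantile normalization, without centring, with centring over the tested probe sets, with a pseudocount of 1 and with the replicate block, and an unadjusted p under 0.05 was then found for 863, 763, 800, 781 and 761 probe sets. There was 1 call with a filter at percentile 60 and with robust variances, and 5 calls with quantile normalization and without WT 2. Leaving out 1 array gave 0 to 6 calls, the 6 without WT 2, and 271 to 1520 probe sets with an unadjusted p under 0.05. Deviations of arrays with the same number had correlations of -0.15, -0.0019 and 0.33, so DKO 3 and WT 3 deviated together to a degree and the others did not. The labels do not say what a shared number means, and the number is not taken as a pairing. The differences of the 20 tested member probe sets kept their sign under each setting except in 2, the dimmer Ghitm probe set and the brightest of Gmfb. The latter was 0.37 with all arrays and -0.06 with quantile normalization, and both turned without WT 2. A pseudocount of 1 or 64 moved 5 of the 20 by over 1.5 times in fold, leaving out WT 2 moved 3 and leaving out DKO 3 moved 1. When a gene was represented by the probe set with the largest difference, Gmfb read -2.10 and not 0.37, and Rem2 -3.00 and not -1.73, and the medians over their tested probe sets were -0.47 and -2.36. Signals below the array median, as on the DKO side of Ang and Ppp1r3e and the WT side of Ccnb1ip1 and Sorbs3, leave the size of a difference dependent on the pseudocount.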

Other observations

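The genes whose profile over the 6 arrays was most like that of a member were looked for among 12627 genes, by the root mean square difference between profiles centred on their own means, on the log2 scale. The members were chosen on the contrast of these same arrays. Any gene with a similar difference between the groups therefore comes out as close, and nothing is read from which genes are listed. For Gch1 the closest were Per3, the clock repressor of chromosome 4, at 0.24, Afap1, an actin filament binding protein, at 0.25 and Meak7 at 0.27. For Sorbs3 the closest was Dbp, a PAR-domain transcription factor and clock output gene, at 0.10, then Mmp17 at 0.16 and Thbs2, a thrombospondin, at 0.18. For Ccnb1ip1 they were Per2, another clock repressor, at 1.03, Gdpd3 at 1.17 and Ccn3 at 1.28, all much farther. For the brighter Rem2 probe set they were 2010109A12Rik at 0.28, Ccser2 of chromosome 14 at 0.36 and Cry1, 1 of the deleted genes, at 0.36. For Ppp1r3e they were Rpgrip1 of chromosome 14 at 0.46, 2010109A12Rik at 0.47 and Ahr, the aryl hydrocarbon receptor, at 0.50, and for Ang Rem2 at 0.37, 2010109A12Rik at 0.48 and Hvcn1, a proton channel, at 0.49.

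For Fhit the closest were Cldn34c1 at 0.32, 2510039O18Rik at 0.37 and Slc24a4 at 0.40. For the brighter Ghitm probe set they were Sh3bp5 of chromosome 14 at 0.25, Tmem18 at 0.30 and Nkain1 at 0.30. For Mtmr9 they were Plcb2, a phospholipase C, at 0.13, Mab21l2 at 0.13 and Vamp5 at 0.16, and for the brightest Gmfb probe set Ccnt1 at 0.06, Topbp1 at 0.07 and Ctdsp1 at 0.08. These distances describe 6 arrays, WT 2 among them, and a short distance says nothing of shared function. For the brightest Gmfb probe set WT 2 was the lowest array. Its closest gene, Ccnt1, likewise differed by 0.46 with all 6 arrays and by -0.41 without WT 2.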
